A study of Mus musculus with 23 samples.

Results

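The interaction of the CD49f and CD25 gates is the CD49f difference within CD25+ cells (CD25+CD49f+ minus CD25+CD49f-) minus the same difference within CD25- cells (CD25-CD49f+ minus CD25-CD49f-). It was taken for every measured gene over all 23 of the 23 arrays, which were placed in their groups by title. The arrays measured total RNA of mouse CD4+ T cells sorted by these surface proteins: 4 arrays held CD25+CD49f+ cells, 5 held CD25+CD49f-, 7 held CD25-CD49f+ and 7 held CD25-CD49f-. All 4 groups are labelled as T cells of female mice, and the labels used here name no strain, age, treatment, organ or number of mice behind an array. The tested values were deposited log2 expression levels of 18194 genes. A gene was called when limma gave an adjusted p under 0.05 over all genes, and a negative interaction means that the CD49f difference was smaller, or more negative, in CD25+ than in CD25- cells.

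CD25, coded by Il2ra, is the interleukin-2 receptor alpha chain and makes the receptor sensitive to low amounts of IL-2. It is constant on most regulatory T cells (Treg cells), which hold back other lymphocytes under the control of the transcription factor Foxp3, and appears for a time on other T cells after activation. CD49f is the integrin alpha 6 chain, coded by Itga6, which pairs with the beta 1 chain (Itgb1) or the beta 4 chain (Itgb4) to bind laminin. Because an interaction is built from 4 group means, its sign follows from which mean is out of line: a CD25+CD49f+ or CD25-CD49f- mean that is high makes it positive and one that is low makes it negative, while for a CD25+CD49f- or CD25-CD49f+ mean the reverse holds. The sign within such a class is therefore arithmetic, and the description below turns on which group it was.

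The labelled cell type was checked first. The 8 measured markers of CD4 T cells averaged 10.42 to 11.23 on every array, and none had a called interaction. Although all mice are labelled female, 12 arrays showed Xist alone, 10 showed Y-linked transcripts alone and 1, CD25+CD49f- replicate 5, showed both. Y-linked transcripts were present in 2 of 4 CD25+CD49f+ arrays, 3 of 5 CD25+CD49f- arrays, 3 of 7 CD25-CD49f+ arrays and 3 of 7 CD25-CD49f- arrays, so both kinds occurred in every group. The 4 arrays with a median correlation under 0.99 with their own group were CD25+CD49f- replicate 5 (0.981), CD25-CD49f+ replicate 1 (0.984) and CD25-CD49f- replicates 1 (0.987) and 7 (0.967). Xist read up to 6.499 on arrays without it. Eif2s3y and Kdm5d, which are Y-linked, read up to 4.066 on arrays without Y-linked transcripts, so background differs between probe sets. The higher value, 6.499, is called the level of absent transcripts below. It is a cautious bound and not a detection limit for every gene. The size of a difference that involves a mean under it is treated as limited by background. The labels call the replicates biological but name no animals, so the p-values cover only the spread among these arrays. In sorted bulk RNA, fewer cells of a type and less RNA per cell cannot be told apart. Precision is set by the number of arrays: the interaction had a median standard error of 0.159.

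CD49f separated CD25- cells at many genes at which it did not separate CD25+ cells, and most called interactions were negative. Of 18194 genes, 966 were called (5.31%), 179 with a positive interaction (0.984%) and 787 with a negative one (4.33%). Negative values thus made up 81.5% of the calls, against 43.5% of all genes, and 82.7% among the 439 called genes with all 4 means above the level of absent transcripts. The median interaction of all genes was 0.03, the median size of a called one was 0.88, and 402 reached a size of at least 1 (44 positive and 358 negative). Within CD25+ cells, CD25+CD49f+ against CD25+CD49f- called 1.82% of genes (0.352% higher with CD49f and 1.47% lower). Within CD25- cells, CD25-CD49f+ against CD25-CD49f- called 13.4% (8.01% higher with CD49f and 5.42% lower). The median standard errors of these differences were 0.124 and 0.099, so the counts are not on an equal footing. Without the 4 arrays that stood apart, 1710 genes had a called interaction (427 positive and 1283 negative), among them 948 of the 966. All 966 kept their sign there and among arrays with and without Y-linked transcripts taken separately. These are subsets of the arrays that gave the calls, so a kept sign is weak support. Of the 966, 352 stayed called among arrays without Y-linked transcripts and 263 among those with them, each with fewer arrays.

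The commonest combination among the 966 genes, seen in 545, was a higher level with CD49f among CD25- cells and no call among CD25+ cells. A further 163 were lower with CD49f among CD25- cells, again without a call among CD25+ cells. Another 110 were lower with CD49f among CD25+ cells and uncalled among CD25- cells, and 1 was higher there. Both differences were called with opposite signs in 56 genes, of which 54 were lower with CD49f among CD25+ cells and higher with CD49f among CD25- cells. Read along the other gate, CD25+CD49f- against CD25-CD49f- called 14.0% of all genes and CD25+CD49f+ against CD25-CD49f+ called 5.72%. Of the 966, 471 were higher in CD25+ cells among CD49f- cells alone, and 83 were lower in CD25+ cells among CD49f+ cells and higher among CD49f- cells.

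**Figure D1:**
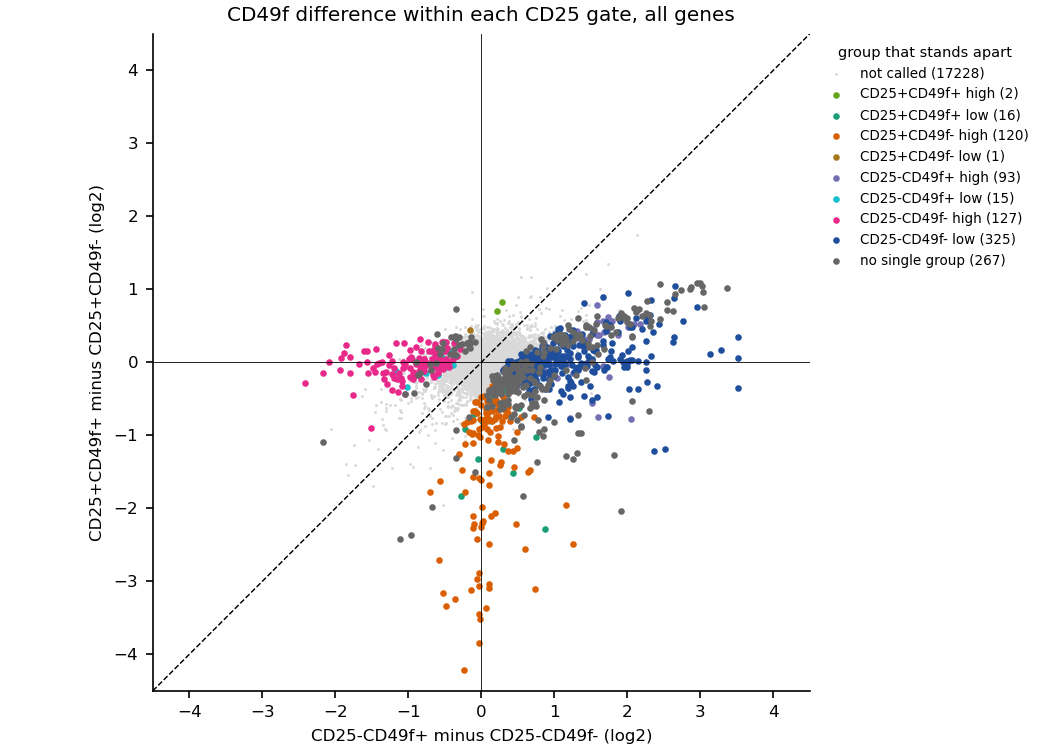
CD49f difference within CD25- cells (horizontal axis, CD25-CD49f+ minus CD25-CD49f-, log2) against the CD49f difference within CD25+ cells (vertical axis, CD25+CD49f+ minus CD25+CD49f-, log2), with 1 point per gene for 18194 genes. Grey points are uncalled, coloured points are the 966 called genes by the group that stands apart, and the dashed line marks an interaction of 0: called genes lie mostly below it, along the right arm (325 genes low in CD25-CD49f- cells) and the lower arm (120 genes high in CD25+CD49f- cells).

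For each gene the 4 group means were sorted, and an end group was said to stand apart when its gap to the next mean exceeded the range of the other 3. By this description a group stood apart in 699 of the 966 called genes (72.4%), against 54.2% of all genes. CD25-CD49f- cells were the low group in 325 called genes (33.6%, against 9.31% of all genes) and the high group in 127 (13.1%, against 12.1%). CD25+CD49f- cells were the high group in 120 (12.4%, against 5.7%) and the low group in 1. CD25-CD49f+ cells were the high group in 93 (9.63%, against 4.44%) and the low group in 15 (1.55%, against 6.43%). CD25+CD49f+ cells were the low group in 16 (1.66%, against 4.26%) and the high group in 2 (0.207%, against 6.6%). The remaining 267 called genes had no such group, 34 with a positive and 233 with a negative interaction. Genes high in CD25+CD49f- cells had the largest median size of these classes, at -1.06, but only 25 of the 120 had all 4 means above the level of absent transcripts, against 191 of the 325 genes low in CD25-CD49f- cells.

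**Figure D2:**
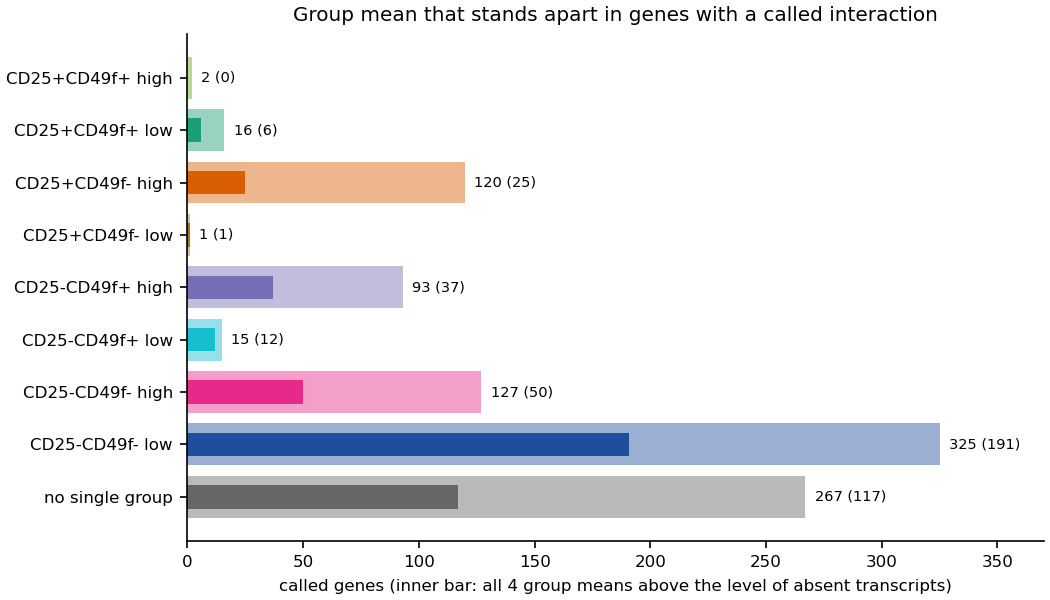
Number of called genes (horizontal axis) in which each group mean stands high or low of the other 3, or in which no single group does. The wide pale bar counts all called genes and the narrow dark bar those with all 4 means above the level of absent transcripts (number in brackets): CD25-CD49f- low is the longest bar, at 325 (191), and CD25+CD49f+ high is short, at 2 (0).

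Transcripts of the Treg program were a case of a low CD25-CD49f- group. Foxp3 had levels of 9.80, 9.61, 10.09 and 9.88 on the CD25+CD49f+ arrays and 9.81, 9.79, 9.90, 9.67 and 9.77 on the CD25+CD49f- arrays. In CD25-CD49f+ cells it ran from 7.80 through a median of 8.36 to 8.46, and in CD25-CD49f- cells from 4.21 through 4.77 to 5.11. The CD25+ groups overlapped each other, every CD25-CD49f+ array lay below them, and every CD25-CD49f- array lay lower still. The interaction was -3.46 ± 0.19 (SE, limma adjusted p = 2.83e-12), made of a CD49f difference of 0.06 in CD25+ cells and 3.51 in CD25- cells. The CD25-CD49f- mean of 4.74 lies under the level of absent transcripts, so the size of the Foxp3 interaction is limited by background. Ctla4, the inhibitory receptor that Treg cells use to strip costimulatory ligands from other cells, averaged above that level in all groups. Its levels were 11.42, 11.01, 11.30 and 11.24 in CD25+CD49f+ cells and ran from 10.40 through a median of 10.86 to 11.34 in CD25+CD49f- cells. They were 10.07, 10.33 and 10.49 (lowest, median, highest) in CD25-CD49f+ cells and 6.13, 6.83 and 7.32 in CD25-CD49f- cells. No CD25-CD49f- array came near the other groups, and the interaction was -3.15 ± 0.22 (adjusted p = 2.62e-10).

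Of 23 measured Treg identity genes, 17 had a negative interaction (73.9%, against 4.33% of all genes). None had a positive one, 6 were uncalled and the median was -1.27. CD25-CD49f- cells were the low group in 10 of the 17 and 7 had no single group. Ikzf2, which codes the transcription factor Helios, averaged 12.06 in CD25+CD49f+, 11.78 in CD25+CD49f-, 11.20 in CD25-CD49f+ and 8.57 in CD25-CD49f- cells (interaction -2.35 ± 0.17, adjusted p = 2.62e-10). Il2rb, the beta chain of the IL-2 receptor, averaged 10.51, 10.46, 9.35 and 7.45 in the same order (interaction -1.85 ± 0.16, adjusted p = 7.32e-09). Both kept all means above the level of absent transcripts. Il2ra itself had 9.45, 9.45, 9.76 and 9.75 in CD25+CD49f+ cells and 9.79, 9.81, 9.59, 9.79 and 9.45 in CD25+CD49f- cells. It ran from 6.46 through 6.90 to 7.09 in CD25-CD49f+ cells and from 5.15 through 5.47 to 5.62 in CD25-CD49f- cells. The sorted CD25- gates thus differed in the transcript of the sort marker without overlap, while the CD25+ gates overlapped (interaction -1.51 ± 0.17, adjusted p = 9.57e-07). The CD25-CD49f- mean of 5.42 lies under the level of absent transcripts. A further Il2ra probe set gave -0.72 ± 0.25, uncalled over all probe sets (adjusted p = 0.156). Ecm1, Entpd1, Plagl1, Rgs16, Swap70 and Tnfrsf18 were the uncalled members, with interactions from -0.87 (Rgs16, adjusted p = 0.0578) to -0.13 (Ecm1, adjusted p = 0.829). On the linear scale 7 of the 966 interactions, computed from geometric means, changed sign. Nrp1, Nt5e and Socs2 of the Treg list were among them, so for these 3 the sign holds for ratios and not for absolute differences. Itgae, the integrin alpha chain CD103 that holds T cells in epithelia, had a called CD49f difference in both CD25 gates. It averaged 9.28 in CD25+CD49f+, 10.48 in CD25+CD49f-, 8.32 in CD25-CD49f+ and 5.96 in CD25-CD49f- cells. It was lower with CD49f in CD25+ cells (-1.21, adjusted p = 8.34e-04) and higher with CD49f in CD25- cells (2.36, adjusted p = 8.44e-11). The second difference is limited by background, because the CD25-CD49f- mean of 5.96 lies under the level of absent transcripts.

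**Figure D3:**
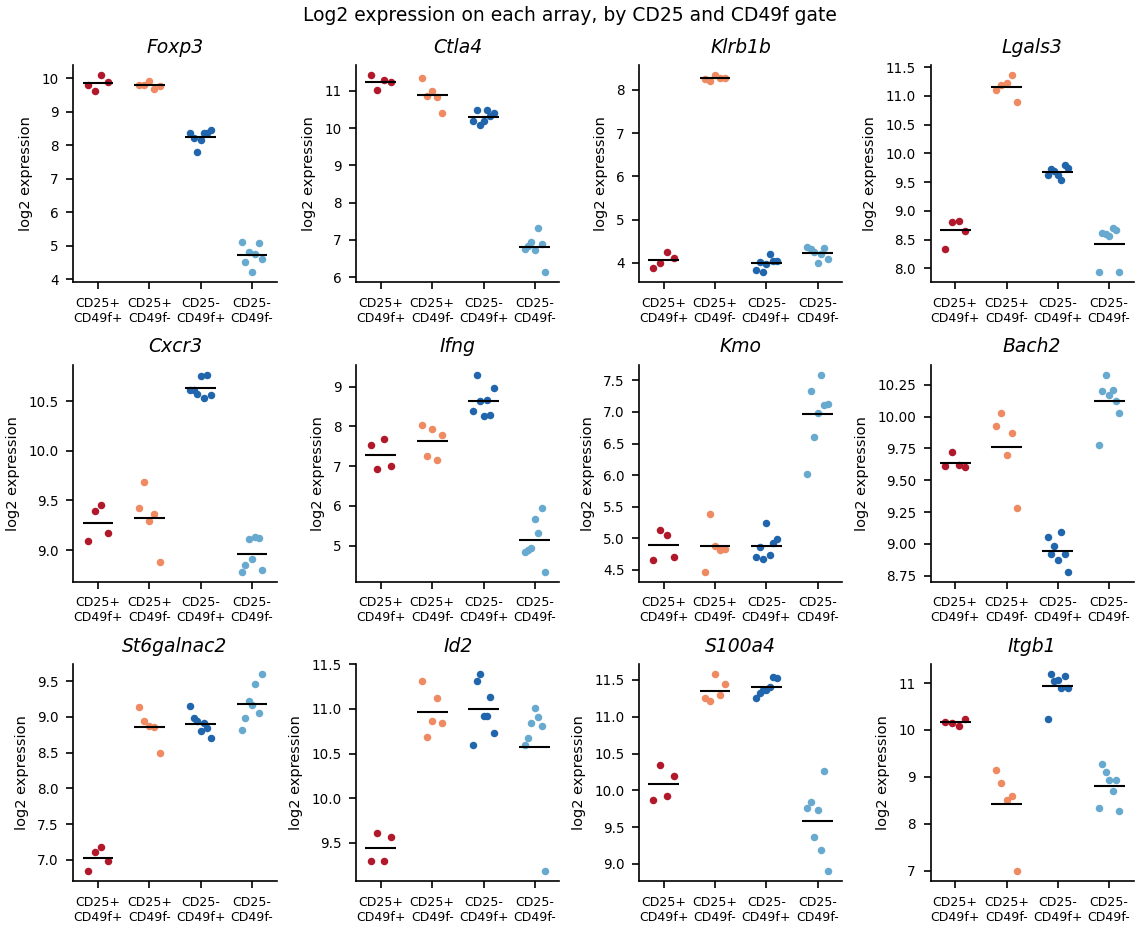
Log2 expression (vertical axes, each with its own range) on each array for 12 genes, with 1 point per array, the 4 groups along the horizontal axis and a line at the group mean. Foxp3 and Ctla4 are low on every CD25-CD49f- array, Klrb1b and Lgals3 are high on every CD25+CD49f- array, Cxcr3 is high and Bach2 low on every CD25-CD49f+ array, and St6galnac2 is low on every CD25+CD49f+ array.

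Many immediate early transcripts that T cell receptor signals induce were also low in CD25-CD49f- cells. Of 29 measured, 20 had a negative interaction (69.0%, against 4.33% of all genes), none a positive one and 9 were uncalled. In 17 of the 20 the CD25-CD49f- mean was the low one. Rgs1, a brake on chemokine receptor signalling, had levels of 11.15, 10.68, 10.96 and 10.97 in CD25+CD49f+ cells and 10.91, 10.46, 10.92, 10.64 and 10.91 in CD25+CD49f- cells. It ran from 9.40 through 9.95 to 10.48 in CD25-CD49f+ cells and from 6.17 through 6.44 to 7.80 in CD25-CD49f- cells. The last group did not overlap any other, and the interaction was -3.11 ± 0.33 (adjusted p = 4.36e-07). Fos, a subunit of the transcription factor AP-1, spread far more within CD25-CD49f- cells. Its levels were 12.51, 12.08, 12.24 and 12.44 in CD25+CD49f+ cells and 12.56, 12.26, 12.28, 12.51 and 12.31 in CD25+CD49f- cells, and 11.89, 12.08 and 12.57 (lowest, median, highest) in CD25-CD49f+ cells. In CD25-CD49f- cells they ran from 8.47 through 9.88 to 11.55, all below the other groups (interaction -2.07 ± 0.53, adjusted p = 0.016). Jun, which pairs with Fos, gave -2.02 ± 0.53 (adjusted p = 0.0194), and without CD25+CD49f+ replicate 2 it was -1.88 (adjusted p = 0.0546). Among arrays without Y-linked transcripts Fos gave -2.20 (adjusted p = 0.232) and among those with them -1.92 (adjusted p = 0.312), so the size was similar and neither class called it. Fos, Jun and Egr1 also belong to the 11 transcripts of cell dissociation stress, whose mean level ran from 10.71 to 10.93 in CD25+CD49f+, 10.79 to 11.10 in CD25+CD49f-, 10.57 to 11.23 in CD25-CD49f+ and 9.42 to 10.80 in CD25-CD49f- cells. Of these 11, 4 had a negative interaction (36.4%) and 7 were uncalled. The fourth called gene was Hspa1a, which codes the inducible chaperone Hsp70 and has a near copy in Hspa1b. It averaged 9.54 in CD25+CD49f+, 10.21 in CD25+CD49f-, 10.95 in CD25-CD49f+ and 8.65 in CD25-CD49f- cells, with no single group apart (interaction -2.96 ± 0.78, adjusted p = 0.0203), and lost its call without CD25+CD49f+ replicate 1 (adjusted p = 0.0615) or replicate 2 (adjusted p = 0.0582). Hspa1b gave -1.93, uncalled, and the uncalled chaperone genes Hspa8 and Dnajb1 gave -0.19 and -0.23. The part of cell handling in the early transcripts was not tested.

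Most transcripts that stood high in CD25+CD49f- cells had a mean under the level of absent transcripts in at least 1 group. Klrb1b, a C-type lectin receptor of the NK receptor complex, had levels of 3.88, 3.99, 4.25 and 4.10 on the CD25+CD49f+ arrays and 8.26, 8.20, 8.34, 8.27 and 8.27 on the CD25+CD49f- arrays. It ran from 3.78 through 4.02 to 4.20 in CD25-CD49f+ cells and from 3.99 through 4.25 to 4.37 in CD25-CD49f- cells. All 5 CD25+CD49f- arrays lay far above the other 18, and the interaction of -3.97 ± 0.12 (adjusted p = 2.01e-17) was the most negative of all called genes. The Klrb1 genes are close relatives, so signal of a related transcript on these probes was not told apart. Klrb1f, a further member, averaged 5.07 in CD25+CD49f+, 7.18 in CD25+CD49f-, 5.74 in CD25-CD49f+ and 5.61 in CD25-CD49f- cells. Arnt2, a partner of basic helix-loop-helix transcription factors, had 5.40, 5.49, 5.33 and 5.37 in CD25+CD49f+ cells and 8.61, 8.52, 8.53, 8.61 and 8.25 in CD25+CD49f- cells. Its range was 5.34 to 5.58 with a median of 5.42 in CD25-CD49f+ cells and 4.56 to 4.79 with a median of 4.73 in CD25-CD49f- cells (interaction -3.85 ± 0.11, adjusted p = 1.65e-18, the smallest p of all genes). Kcnk1, a potassium leak channel, Pxdc1 and Fam184b gave the same picture, with means of 8.09, 9.01 and 7.32 in CD25+CD49f- cells and of 3.45 to 6.05 in the other groups.

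A further gene of this kind, Lgals3, which codes the carbohydrate-binding protein galectin-3, averaged above the level of absent transcripts in all groups. It had levels of 8.34, 8.81, 8.83 and 8.65 in CD25+CD49f+ cells and 11.10, 11.18, 11.22, 11.36 and 10.90 in CD25+CD49f- cells. It ran from 9.54 through 9.69 to 9.80 in CD25-CD49f+ cells and from 7.93 through 8.60 to 8.70 in CD25-CD49f- cells. CD49f therefore went with opposite differences in the 2 CD25 gates, -2.49 (adjusted p = 7.13e-12) in CD25+ and 1.25 (adjusted p = 1.33e-08) in CD25- cells, and the interaction was -3.74 ± 0.19 (adjusted p = 4.81e-13). Klrg1, an inhibitory lectin receptor of strongly differentiated lymphocytes, showed the same crossing, with -1.95 in CD25+ and 1.16 in CD25- cells, the second limited by background because the CD25-CD49f- mean of 6.49 lies just under the level of absent transcripts. Tmem176a, a membrane protein transcribed with its neighbour Tmem176b in RORγt-dependent lymphocytes, had 6.63, 6.84, 6.63 and 6.48 in CD25+CD49f+ cells and 9.85, 9.90, 10.01, 9.90 and 9.79 in CD25+CD49f- cells. It ran from 6.66 through 6.80 to 6.90 in CD25-CD49f+ cells and from 6.94 through 7.06 to 7.48 in CD25-CD49f- cells (interaction -2.89 ± 0.13, adjusted p = 2.54e-14). Only the CD25+CD49f- arrays were high.

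The 11 measured Th17-linked genes had a median interaction of -2.19. Of them, 8 had a negative interaction (72.7%, against 4.33% of all genes) and none a positive one. In 4 of them, Tmem176a, Tmem176b, Il17re (a receptor chain for IL-17C) and Il1r1 (the IL-1 receptor), CD25+CD49f- was the high group. Maf, Rora and Ahr, transcription factors active in Th17 and other effector cells, were instead low in CD25-CD49f- cells, and Ccr6, the receptor for the chemokine CCL20, had no single group. Il17a was uncalled (-0.05, adjusted p = 0.922), with means of 5.95 to 6.03, under the level of absent transcripts. Tmem176a and Tmem176b also stand on the list of gamma delta and NKT cell markers, of which 5 of 6 measured had a negative interaction (83.3%). Its mean level was 6.19 to 6.39 in CD25+CD49f+, 7.83 to 7.91 in CD25+CD49f-, 6.60 to 6.76 in CD25-CD49f+ and 6.47 to 6.64 in CD25-CD49f- cells. Besides the Tmem176 pair, the called members were 5830411N06Rik, Zbtb16 and Blk. 5830411N06Rik averaged 6.10 in CD25+CD49f+, 7.46 in CD25+CD49f-, 6.72 in CD25-CD49f+ and 5.96 in CD25-CD49f- cells (interaction -2.12 ± 0.18, adjusted p = 6.13e-09). Zbtb16, the transcription factor PLZF of NKT cells, averaged 5.77 in CD25+CD49f+, 6.49 in CD25+CD49f-, 6.58 in CD25-CD49f+ and 6.0 in CD25-CD49f- cells (interaction -1.30, adjusted p = 6.19e-06). Blk, a Src family kinase, was high in CD25+CD49f- cells (interaction -0.89, adjusted p = 0.00102), and Sox13, uncalled, averaged 5.61 to 5.75 in the 4 groups. Ncr1, a receptor that defines NK cells, averaged 5.32, 5.71, 5.37 and 5.37 in that order and was uncalled (adjusted p = 0.213). The part of such cells in the CD25+CD49f- levels was not tested.

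CD25-CD49f+ cells stood high in some genes of Th1 cells and of cell division. Cxcr3, the receptor for interferon-induced chemokines, had levels of 9.09, 9.39, 9.45 and 9.17 in CD25+CD49f+ cells and 9.42, 9.69, 9.29, 9.36 and 8.88 in CD25+CD49f- cells. It ran from 10.53 through 10.61 to 10.77 in CD25-CD49f+ cells and from 8.78 through 8.91 to 9.13 in CD25-CD49f- cells. The 7 CD25-CD49f+ arrays were above all others, which overlapped among themselves (interaction -1.72 ± 0.16, adjusted p = 2.51e-08). Tbx21, the Th1 transcription factor T-bet, averaged 7.37 in CD25+CD49f+, 7.52 in CD25+CD49f-, 8.65 in CD25-CD49f+ and 7.39 in CD25-CD49f- cells (interaction -1.42, adjusted p = 1.37e-06). Ifng, the Th1 cytokine interferon gamma, was also highest there but was sorted as low in CD25-CD49f- cells. Its levels were 7.54, 6.93, 7.67 and 7.01 in CD25+CD49f+ cells and 8.04, 7.25, 7.94, 7.15 and 7.79 in CD25+CD49f- cells. It ran from 8.25 through 8.64 to 9.30 in CD25-CD49f+ cells and from 4.34 through 4.93 to 5.95 in CD25-CD49f- cells. Every CD25-CD49f+ array exceeded every other array, and every CD25-CD49f- array lay under all the rest, which gave an interaction of -3.86 ± 0.35 (adjusted p = 2.04e-08). The Ifng mean of 5.13 in CD25-CD49f- cells lies under the level of absent transcripts, so this size is limited by background.

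The genes with the largest interactions among those high in CD25-CD49f+ cells were Esm1, Ctla2a, Ctla2b and Il2. Il2, the cytokine bound by CD25, averaged 4.73 ± 0.23 on the 4 CD25+CD49f+ arrays and 5.50 ± 0.16 on the 5 CD25+CD49f- arrays (SD). It averaged 6.34 ± 0.32 on the 7 CD25-CD49f+ arrays and 5.12 ± 0.40 on the 7 CD25-CD49f- arrays (SD). All 4 means lie under the level of absent transcripts, so the interaction of -1.99 ± 0.25 (adjusted p = 4.16e-06) is one of dim signals. Ctla2a, a cysteine protease inhibitor of activated T cells, averaged 6.65, 7.40, 8.57 and 6.96 in the same order. Ctla2a and Ctla2b are near copies of each other and may share signal.

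Most cell division transcripts had a negative interaction too. Of 38 measured genes of mitosis, 35 had a negative interaction (92.1%, against 4.33% of all genes). The other 3 (Cdca3, Kif23 and Tpx2) were uncalled, and the list median was -1.43. CD25-CD49f+ was the high group in 14, CD25-CD49f- the low group in 1, and 20 had no single group. The median CD49f difference over the list was 0.60 in CD25+ and 2.03 in CD25- cells. Mki67, the proliferation antigen Ki-67, had 9.20, 9.32, 9.66 and 9.10 in CD25+CD49f+ cells and 8.66, 8.81, 8.90, 7.95 and 8.78 in CD25+CD49f- cells. It ran from 10.33 through 10.49 to 10.61 in CD25-CD49f+ cells and from 7.18 through 7.80 to 8.21 in CD25-CD49f- cells. CD49f+ arrays were above CD49f- arrays in both CD25 gates, by 0.70 (adjusted p = 0.0503) in CD25+ cells, which missed the call, and by 2.63 (adjusted p = 1.88e-12) in CD25- cells, with an interaction of -1.93 ± 0.24 (adjusted p = 3.58e-06). Cdk1, the kinase that drives entry into mitosis, was called in both gates (0.82 and 2.54) and in the interaction (-1.72 ± 0.19, adjusted p = 9.26e-07). Of 29 measured DNA replication genes, 16 had a negative interaction (55.2%) and 13 were uncalled, with a median of -0.75. Rrm2, a subunit of ribonucleotide reductase, averaged 10.26 in CD25+CD49f+, 9.50 in CD25+CD49f-, 10.92 in CD25-CD49f+ and 7.96 in CD25-CD49f- cells.

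**Figure D4:**
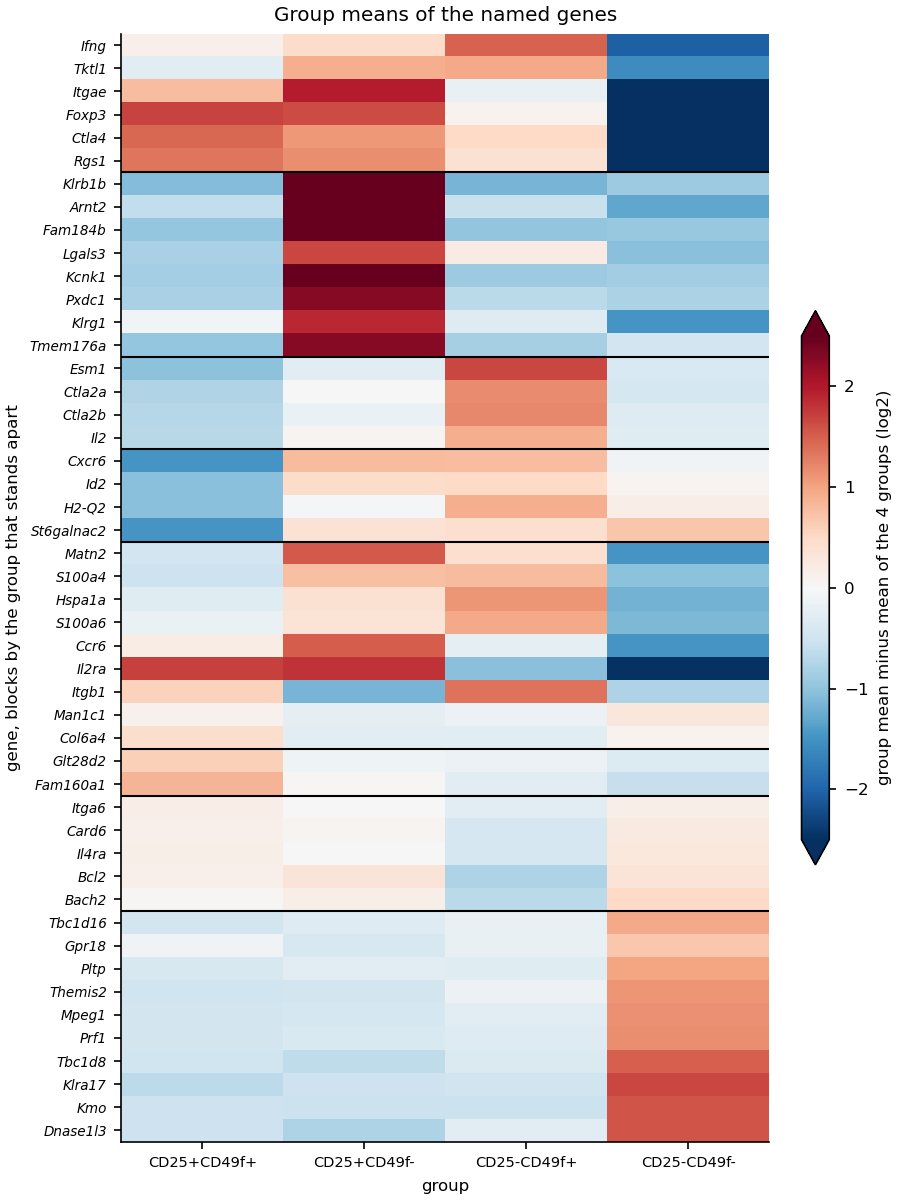
Group means minus the mean of the 4 groups (colour, log2, cut at 2.5 either way) for named genes (rows, in blocks by the group that stands apart) in the 4 groups (columns). Each block has 1 column that differs from the other 3, such as CD25+CD49f- for Klrb1b, except in the block between Matn2 and Col6a4, where no single group stands apart and Itgb1 is high in both CD49f+ groups.

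CD25-CD49f- cells were the high group in 127 of the 179 genes with a positive interaction. They were the high group in 13.1% of called genes, against 12.1% of all genes. This count is near the share over all genes and is by itself no result about the group. Kmo, an enzyme of tryptophan breakdown, had levels of 4.66, 5.13, 5.06 and 4.70 in CD25+CD49f+ cells and 4.47, 5.38, 4.88, 4.81 and 4.83 in CD25+CD49f- cells. It ran from 4.67 through 4.86 to 5.24 in CD25-CD49f+ cells and from 6.01 through 7.11 to 7.59 in CD25-CD49f- cells. The CD25-CD49f- arrays did not overlap the others, all of which lay under the level of absent transcripts (interaction 2.11 ± 0.28, adjusted p = 1.15e-05). Dnase1l3, a secreted DNase of dendritic cells and macrophages, likewise averaged 5.07, 4.83 and 5.31 in CD25+CD49f+, CD25+CD49f- and CD25-CD49f+ cells, against 7.17 in CD25-CD49f- cells (interaction 2.11 ± 0.31, adjusted p = 4.16e-05). Itgax, the integrin alpha chain CD11c of dendritic cells, had 5.84, 6.13, 6.45 and 6.47 in CD25+CD49f+ cells and 5.70, 6.24, 6.30, 6.53 and 6.03 in CD25+CD49f- cells. It ran from 6.26 through 6.69 to 7.02 in CD25-CD49f+ cells and from 7.39 through 8.73 to 9.68 in CD25-CD49f- cells, without overlap with the other groups. Siglech and Klra17, surface proteins of plasmacytoid dendritic cells, averaged 7.09 and 8.52 in CD25-CD49f- cells and no more than 6.35 in any other group.

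Siglech, Klra17 and Dnase1l3 are themselves on the list of plasmacytoid dendritic cell markers, and Itgax is on that of myeloid and dendritic cells. The lists therefore add no separate support. Of 11 measured markers of plasmacytoid dendritic cells, 5 had a positive interaction (Siglech, Klra17, Spib, Cox6a2 and Dnase1l3), 1 a negative one (Ccr9, -1.40) and 5 were uncalled. The positive and negative shares were 45.5% and 9.09%, against 0.984% and 4.33% of all genes. The mean of the list was 6.25 to 6.78 in CD25+CD49f+, 6.48 to 6.98 in CD25+CD49f-, 6.17 to 6.77 in CD25-CD49f+ and 6.92 to 8.16, with a median of 7.5, in CD25-CD49f- cells. The lowest CD25-CD49f- array overlapped the CD25+CD49f- range. Markers of myeloid and dendritic cells had 1 positive (Itgax), 2 negative (Batf3 and Fcer1g) and 14 uncalled of 17. Their list means were 6.40 to 6.89, 6.72 to 7.09, 6.68 to 7.13 and 6.80 to 7.91 in the same order. Unlike Itgax, both negative members were highest in CD25+CD49f- cells. Batf3 averaged 5.16, 6.95, 5.26 and 5.96, and Fcer1g 6.22, 8.20, 6.61 and 7.29, in that order. Mpeg1, the pore protein of phagocytes, averaged 8.12, 8.13, 8.31 and 9.72 (interaction 1.39 ± 0.33, adjusted p = 0.00905). Prf1, the pore protein of cytotoxic lymphocytes, ran from 7.24 to 8.34 in CD25-CD49f- cells, above the highest value of 6.51 elsewhere (interaction 1.41 ± 0.22, adjusted p = 9.10e-05), whereas Gzmb, the granzyme delivered through it, was low there (interaction -2.47 ± 0.17, adjusted p = 1.02e-10). Cd8a was uncalled (0.23, adjusted p = 0.762). The part of other cell types in the CD25-CD49f- levels was not tested. Restricted to arrays without Y-linked transcripts, the interactions of Kmo (1.90, adjusted p = 0.0701), Itgax (1.57, adjusted p = 0.119) and Prf1 (1.37, adjusted p = 0.0518) kept their sign and missed the call, and on Y-linked arrays these 3 were called.

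Some genes of naive and recirculating T cells also had positive interactions. Of 16 measured, 5 were positive (31.2%, against 0.984% of all genes), 2 negative (12.5%, against 4.33%) and 9 uncalled, with a median of 0.45. Ccr7, the receptor that brings T cells into lymph nodes, averaged 10.09 in CD25+CD49f+, 10.18 in CD25+CD49f-, 10.24 in CD25-CD49f+ and 11.23 in CD25-CD49f- cells (interaction 0.90, adjusted p = 0.0051). Lef1, a transcription factor of naive T cells, averaged 10.68, 10.86, 11.14 and 12.03 in that order (interaction 0.71 ± 0.14, adjusted p = 0.00131). Both were high in CD25-CD49f- cells, but Bach2 was instead low in CD25-CD49f+ cells. Bach2, a repressor of effector genes, had 9.61, 9.72, 9.62 and 9.60 in CD25+CD49f+ cells and 9.93, 10.03, 9.70, 9.87 and 9.28 in CD25+CD49f- cells. It ran from 8.78 through 8.92 to 9.09 in CD25-CD49f+ cells and from 9.78 through 10.17 to 10.33 in CD25-CD49f- cells. The CD25-CD49f+ arrays lay under all others, and the interaction was 1.05 ± 0.15 (adjusted p = 4.56e-05).

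A low CD25-CD49f+ group was found in 15 called genes, 12 of them with all means above the level of absent transcripts. Besides Bach2 they included Bcl2, which protects cells from apoptosis, with 9.52 ± 0.19 in CD25-CD49f+ cells (SD, n = 7) and 10.42 to 10.63 in the other groups (interaction 0.90 ± 0.17, adjusted p = 0.00104). Il4ra, the IL-4 receptor alpha chain (0.82 ± 0.16, adjusted p = 0.00146), and Card6, a caspase recruitment domain protein (0.68 ± 0.11, adjusted p = 2.41e-04), shared the shape. So did Itga6, the transcript of the sort marker CD49f. Its levels were 9.78, 9.84, 9.78 and 9.84 in CD25+CD49f+ cells and 9.84, 9.79, 9.58, 9.73 and 9.28 in CD25+CD49f- cells. They ran from 9.23 through 9.37 to 9.47 in CD25-CD49f+ cells and from 9.55 through 9.79 to 9.98 in CD25-CD49f- cells. Among CD25- cells the cells sorted as CD49f+ thus had less Itga6 transcript on every array (-0.44, adjusted p = 3.21e-04), while among CD25+ cells the difference was 0.16 (adjusted p = 0.88). The interaction was 0.60 ± 0.13 (adjusted p = 0.00412), and a further Itga6 probe set gave 0.83 ± 0.36, uncalled over all probe sets (adjusted p = 0.322).

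CD25+CD49f+ cells were rarely the group that stood apart, and when they did so they were mostly low. St6galnac2, a sialyltransferase, had 6.84, 7.11, 7.18 and 6.99 in CD25+CD49f+ cells and 9.14, 8.95, 8.87, 8.86 and 8.49 in CD25+CD49f- cells. It ran from 8.71 through 8.92 to 9.15 in CD25-CD49f+ cells and from 8.82 through 9.17 to 9.60 in CD25-CD49f- cells. No CD25+CD49f+ array overlapped the others, which overlapped among themselves (interaction -1.55 ± 0.18, adjusted p = 1.15e-06). Id2, an inhibitor of E proteins needed by effector lymphocytes, had 9.30, 9.61, 9.30 and 9.56 in CD25+CD49f+ cells and 11.31, 10.69, 10.86, 11.12 and 10.84 in CD25+CD49f- cells. It ran from 10.59 through 10.92 to 11.39 in CD25-CD49f+ cells and from 9.18 through 10.81 to 11.01 in CD25-CD49f- cells, where replicate 7 gave the 9.18 and the other arrays at least 10.59 (interaction -1.95 ± 0.32, adjusted p = 2.03e-04). Without the 4 arrays that stood apart the Id2 interaction was -1.77 (adjusted p = 1.36e-07).

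Cxcr6, a chemokine receptor of tissue T cells, averaged 5.79 ± 0.19 on the 4 CD25+CD49f+ arrays and 8.07 ± 1.74 on the 5 CD25+CD49f- arrays (SD). It averaged 8.05 ± 0.33 on the 7 CD25-CD49f+ arrays and 7.18 ± 0.76 on the 7 CD25-CD49f- arrays (SD). The wide spread in CD25+CD49f- cells came from replicate 5, at 5.08 against 8.01 to 9.28 on the other arrays. The interaction was -3.15 ± 0.71 (adjusted p = 0.00555) over all arrays and -3.51 (adjusted p = 5.05e-09) without the 4 arrays that stood apart, and on Y-linked arrays alone, which include that replicate, it was -2.64 (adjusted p = 0.504). A further Cxcr6 probe set gave -4.13 ± 0.41 over all arrays, called over all probe sets (adjusted p = 2.25e-07). Runx3, a transcription factor of cytotoxic and Th1 cells (-0.93, adjusted p = 0.0113), and the cytokine genes Il21 (-1.48, adjusted p = 7.91e-05) and Il4 (-0.70, adjusted p = 0.00183) had the same low group. H2-Q2, a class I histocompatibility gene with close relatives, did too (-1.77 ± 0.42, adjusted p = 0.00831), with all means under the level of absent transcripts. The 2 genes high in CD25+CD49f+ cells were Fam160a1 and Glt28d2. Fam160a1 had 6.76, 7.02, 6.91 and 7.05 there, against 5.91 to 6.31 in CD25+CD49f- cells, with means of 5.81 in CD25-CD49f+ and 5.53 in CD25-CD49f- cells (interaction 0.53 ± 0.13, adjusted p = 0.0113). Glt28d2 gave 0.48 ± 0.13 (adjusted p = 0.0184) and lost its call without CD25+CD49f+ replicate 1 (0.44, adjusted p = 0.0613) or replicate 3 (0.42, adjusted p = 0.0655). The 1 gene low in CD25+CD49f- cells was A630023P12Rik (interaction 0.60, adjusted p = 0.0135).

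Genes with no single group fell into orders of group pairs. These orders were counted among called genes only, so no share over all genes stands beside them. Among the 267, both single-positive groups, CD25+CD49f- and CD25-CD49f+, exceeded the other groups in 95, and the reverse held in 20. The first order forces a negative interaction and its reverse a positive one, so these counts largely repeat the excess of negative calls. Both CD49f+ groups exceeded both CD49f- groups in 76, and both CD25+ groups exceeded both CD25- groups in 56. In some effector genes the CD49f difference crossed over. S100a4, a calcium-binding protein of memory T cells, had 9.87, 10.34, 9.93 and 10.19 in CD25+CD49f+ cells and 11.25, 11.21, 11.58, 11.30 and 11.44 in CD25+CD49f- cells. It ran from 11.26 through 11.37 to 11.54 in CD25-CD49f+ cells and from 8.90 through 9.73 to 10.26 in CD25-CD49f- cells. The single-positive groups overlapped each other, the remaining groups overlapped each other, and the sets did not meet. The CD49f difference was -1.27 among CD25+ cells (adjusted p = 4.85e-05) and 1.82 among CD25- cells (adjusted p = 5.12e-10), an interaction of -3.09 ± 0.23 (adjusted p = 6.27e-10).

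Il18rap, the accessory chain of the IL-18 receptor, crossed in the same way (-0.92 in CD25+ and 0.86 in CD25- cells, interaction -1.79 ± 0.17), as did Tox2, a nuclear factor of follicular helper cells (-1.01 and 0.85, interaction -1.86 ± 0.19). Ccr6 had 8.41, 8.54, 8.81 and 8.93 in CD25+CD49f+ cells and 10.03, 9.75, 10.50, 10.15 and 9.59 in CD25+CD49f- cells. It ran from 7.75 through 8.25 to 8.52 in CD25-CD49f+ cells and from 6.72 through 7.0 to 7.33 in CD25-CD49f- cells. CD25+CD49f+ and CD25-CD49f+ arrays overlapped, CD25+CD49f- arrays lay above and CD25-CD49f- arrays below them (interaction -2.57 ± 0.21, adjusted p = 3.45e-09). The 2 genes with the opposite crossing, higher with CD49f in CD25+ cells and lower in CD25- cells, were Man1c1 and Col6a4. Man1c1, an enzyme that trims N-glycans, had small differences of 0.35 (adjusted p = 0.0199) and -0.42 (adjusted p = 2.97e-05), with an interaction of 0.77 ± 0.10 (adjusted p = 1.55e-05). Col6a4, a collagen VI chain, had 0.73 (adjusted p = 0.00455) and -0.35 (adjusted p = 0.0488), with an interaction of 1.08 ± 0.19 (adjusted p = 4.13e-04).

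Some genes that followed CD49f in both CD25 gates had no called interaction. In 128 genes the CD49f difference was called with the same sign in both CD25 gates, and the interaction was uncalled in 80 of these. Itgb1, the beta chain that pairs with CD49f, was one of the 80. It had 10.18, 10.14, 10.08 and 10.24 in CD25+CD49f+ cells and 9.14, 8.87, 8.51, 8.60 and 6.99 in CD25+CD49f- cells, and ran from 10.24 through 11.04 to 11.19 in CD25-CD49f+ cells and from 8.28 through 8.93 to 9.28 in CD25-CD49f- cells. Both CD49f+ groups were above both CD49f- groups on every array, by 1.74 (adjusted p = 4.73e-04) in CD25+ and 2.13 (adjusted p = 1.31e-07) in CD25- cells. The interaction of -0.39 ± 0.37 (95% interval -1.15 to 0.37, adjusted p = 0.747) does not show that the differences were equal. The outlying arrays were CD25+CD49f- replicate 5 (6.99) and CD25-CD49f+ replicate 1 (10.24), and without the 4 arrays that stood apart the Itgb1 interaction was called, at -0.67 (adjusted p = 0.0062). A further Itgb1 probe set with means of 2.59 to 3.47 was called over all probe sets, at -0.54 (adjusted p = 0.0295). Brighter Itgb1 probe sets gave -0.31 (adjusted p = 0.89) and -0.45 (adjusted p = 0.115), both uncalled. The class II histocompatibility genes H2-Aa, H2-Ab1 and Cd74, which are characteristic of antigen-presenting cells, were lower with CD49f in both gates. H2-Aa averaged 9.13 in CD25+CD49f+, 10.83 in CD25+CD49f-, 9.62 in CD25-CD49f+ and 11.11 in CD25-CD49f- cells, with an uncalled interaction of -0.22 (adjusted p = 0.871). With the mean of these 3 genes on each array as a covariate, 996 interactions were called, among them 941 of the 966. Because H2-Aa differed with CD49f in a similar way in both gates, such a covariate could hardly move the interactions. The kept calls therefore decide nothing about antigen-presenting cells, whose part was not tested.

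Across the 19 pathway lists the counts can be read against a background of 4.33% of genes called negative and 0.984% called positive. Effector and memory genes had 19 negative of 22 (median -1.40), Treg suppressive effectors 10 negative and 1 positive of 20 (median -1.12), Th1 and cytotoxic genes 9 negative of 15 (median -0.93) and follicular helper genes 7 negative of 15 (median -0.70). Within the effector and memory list no single class held the members: Cd44 and Lgals1 were low in CD25-CD49f- cells, Anxa2 and Emp1 high in CD25-CD49f+ cells, and Cxcr6 and Id2 low in CD25+CD49f+ cells. IL-2 and STAT5 targets had 7 negative, 2 positive (Bcl2 and Ccnd2) and 8 uncalled of 17, with a median of -0.52, and Cish, a feedback inhibitor of IL-2 signalling, was uncalled (-0.33, adjusted p = 0.362). Chemokine receptors had 9 negative and 1 positive of 21, killer lectin-like receptors 3 negative and 2 positive of 13, IL-1 and IL-18 family receptors 3 negative of 8, and TNF receptor superfamily genes 4 negative of 18. Integrins had 1 negative (Itgae) and 2 positive (Itga6 and Itgax) of 23.

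Metabolic and interferon lists held calls near the share over all genes, of which 4.33% were called negative and 0.984% positive. Glycolysis had 1 negative of 18 (Pgk1, -0.61 ± 0.12, adjusted p = 0.00146), interferon response genes 1 negative of 21 (Oas1a, -0.72 ± 0.13, adjusted p = 7.91e-04) and cholesterol biosynthesis none of 18, where Fdft1, squalene synthase, had the largest size at -1.02 (adjusted p = 0.349). Among markers of other cells, B cells had 1 negative of 15 (Blk), platelets and megakaryocytes 1 negative of 11 (Nrgn), stromal and endothelial cells 1 positive of 11 (Cdh5, with all means under the level of absent transcripts), NK cells 4 negative and 2 positive of 11, and CD8 T cells 2 negative and 1 positive of 5. Neutrophil markers had no call of 11 and erythroid markers none of 8. In lists this short a single call or none is near the share over all genes and is not a result about the list. The lists share genes, so their counts are not independent.

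**Figure D5:**
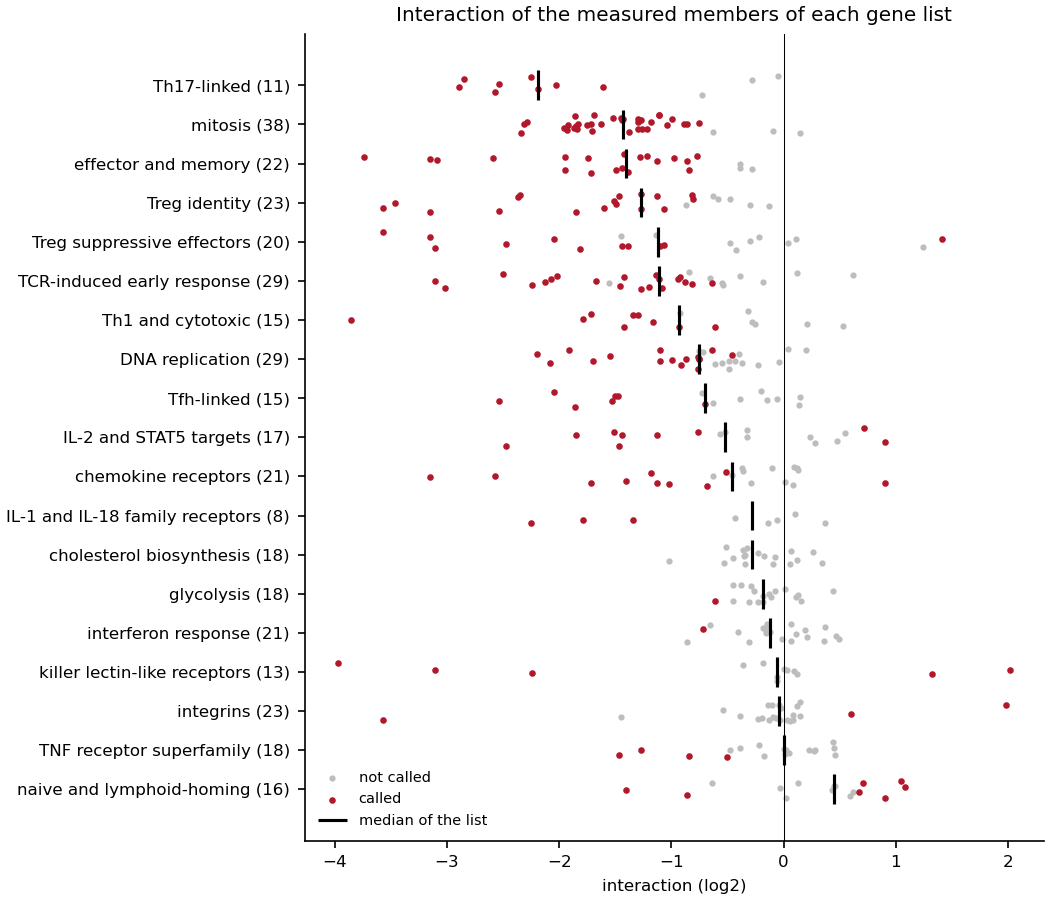
Interaction (horizontal axis, log2) of each measured member of the 19 pathway lists (rows, number of measured members in brackets, sorted by median). Red points are called, grey points are uncalled and the black bar is the list median: the medians run from -2.19 for Th17-linked genes to 0.45 for naive and lymphoid-homing genes, and most red points lie left of 0.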

How the data were processed

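Total RNA of 23 sorted T cell samples was hybridised to expression arrays. The values used are the deposited log2 expression levels of 45101 probe sets, which the authors made with RMA, per the submitters' processing notes (version not given in the sources used here). Of these probe sets 34958 were paired with a single gene, 932 with several and 9211 with none, and 34754 of the 34958 matched RefSeq (GRCm38.p6) by Entrez identifier. For the 9012 genes with several probe sets the one with the highest mean was kept, which left 18194 genes.

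Groups were taken from the sample titles. The 4 groups were fitted together in R 4.3.3 with the linear models of limma 3.58.1 and its eBayes step, without a covariate. Benjamini-Hochberg adjustment ran over all 18194 genes, with a call at an adjusted p under 0.05. On simulated data for the interaction, genes with an added size of 0.5, 1 and 2 were called in 17.9%, 88.1% and 100% of cases. There were 8 false calls, and small interactions were mostly missed. The simulated noise was independent and normal, few genes were changed and no array stood apart. These rates therefore need not carry over to the measured arrays. The number of arrays limits precision. No array was a copy of another (highest correlation 0.9974).

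The named genes were Il2ra, Itga6, Itgb1 and Foxp3, the 6 smallest p-values of each sign, the 4 largest interactions for each group that stands apart, the 6 largest of each sign with all 4 means above the level of absent transcripts, up to 3 called members per list and up to 4 per sign called in both CD49f differences with opposite signs. Clone and model names were passed over, and other genes in the text were chosen after their values were seen. The 31 lists had 548 entries, of which 500 were measured (436 different genes). Members, lists and rules were chosen with earlier results of these data known. No set of genes was tested as a set. Alternatives changed the scaling, probe sets, filters, thresholds, variance model, array weights, arrays and covariates. Those that dropped the 4 arrays that stood apart, kept only Y-linked arrays lacking Xist, or used class II histocompatibility genes as a covariate were chosen after seeing the data.

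Replicate numbers are shared between groups, but nothing in the labels ties them to a shared animal or day. The 29 pairs with the same number had correlations of deviations from -0.514 to 0.413, with 14 over 0.1, so the numbers were not taken as pairs. Python 3.11.15 with matplotlib 3.10.9 drew the figures.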

Additional observations from a re-analysis of the deposited data

Results flagged for a closer look

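The CD49f difference differed between CD25+ and CD25- cells in 966 genes by the test of the interaction itself. Beyond this, 192 sets of array values (48 genes in 4 groups) were searched for a single array far from the rest of its group, and 23 were found. Chance alone also gives such findings, at a rate that was not estimated, and no cause was tested.

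CD25-CD49f+ replicate 1 was the array in 8 of the 23. It had less Itgb1 (10.24, against 10.90 to 11.19 on the other arrays of its group), Mpeg1 (7.40, against 8.18 to 8.67), Esm1 (6.31, against 7.53 to 8.42), Ctla2b (5.29, against 5.95 to 6.38) and Matn2 (5.04, against 6.90 to 7.28). It had more Gpr18 (9.58, against 9.02 to 9.25), Il4ra (8.44, against 7.87 to 8.0) and Card6 (9.98, against 9.68 to 9.81). CD25-CD49f- replicate 7 was lowest of its group for Id2 (9.18, against 10.59 to 11.01), Esm1 (3.38, against 5.80 to 6.36), Ctla2a (5.35, against 7.03 to 7.43), Ctla2b (3.75, against 4.40 to 4.88) and Itgae (4.99, against 5.88 to 6.44). CD25+CD49f- replicate 5 was lowest for Arnt2 (8.25, against 8.52 to 8.61) and Il4ra (8.01, against 8.46 to 8.56), and CD25-CD49f- replicate 1 was highest for Klrg1 (6.97, against 6.26 to 6.55). These are the 4 arrays that stood apart over all genes. The search did not flag the low Itgb1 level of CD25+CD49f- replicate 5 (6.99, against 8.51 to 9.14 on the other arrays of its group). Nor did it flag the low Cxcr6 level of that array, so the flags do not list every departure.

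The other flagged values lay on further arrays. CD25+CD49f+ replicate 2 was highest for Bach2 (9.72, against 9.60 to 9.62) and Cxcr6 (6.07, against 5.67 to 5.72) and lowest for Bcl2 (10.25, against 10.46 to 10.50). CD25+CD49f+ replicate 1 was highest for Kcnk1 (4.77, against 4.58 to 4.61) and Il2 (5.08, against 4.58 to 4.64). CD25-CD49f+ replicate 4 was highest for Man1c1 (7.89, against 7.67 to 7.76), and CD25-CD49f- replicate 5 was lowest for Pxdc1 (5.74, against 5.94 to 6.07).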

How the results depend on the processing

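The 966 called interactions kept their sign in every alternative in which they were tested, except for 7 on the linear scale (Hivep3, Lclat1, Nrp1, Nt5e, Socs2, Spry1 and Tiam1), and all 94 named genes kept their sign on the log2 scale. The alternatives reuse the arrays that gave the calls, so a kept sign is weak support. Leaving out 1 array at a time called 773 to 1128 genes (128 to 250 positive and 639 to 878 negative). A fixed replicate block called 985 genes and a random replicate block 939, and only 2 arrays correlated best with their own number. Robust trended eBayes, median centring, cyclic loess, the mean of probe sets and Y-linked transcripts as a covariate called 941, 930, 1082, 1038 and 968. The share of negative calls was 72.7% after quantile scaling, with 277 positive calls, 82.8% after median centring and 77.3% after loess, and the median interaction of all genes stayed between 0.012 and 0.037.

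Counts moved more under other choices, and the cause was not tested unless fewer genes or arrays are named. Array weights called 2273 (691 positive, 1582 negative), with CD25+CD49f- high in 190, CD25-CD49f+ high in 203, CD25-CD49f- high in 318 and CD25-CD49f- low in 629. Without the 4 arrays that stood apart, 1710 were called (427 positive, 1283 negative), with CD25-CD49f+ high in 188, CD25-CD49f- high in 258 and CD25-CD49f- low in 512. With fewer arrays, those without Y-linked transcripts called 370 (19 positive, 351 negative; CD25-CD49f+ high 40, CD25-CD49f- high 14, CD25-CD49f- low 138). Those with Y-linked transcripts called 276 (49 positive, 227 negative; CD25+CD49f- high 54, CD25-CD49f+ high 23, CD25-CD49f- high 47, CD25-CD49f- low 87). Without the array that also showed Xist these became 242 (35 positive, 207 negative), with 48, 20, 32 and 80 in the same order.

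With fewer genes, the filter on 4 group means above the level of absent transcripts called 424 (74 positive, 350 negative), with CD25+CD49f- high in 24, CD25-CD49f+ high in 37, CD25-CD49f- high in 50 and CD25-CD49f- low in 183. Keeping only the brighter genes, above the median level, left 47 with CD25+CD49f- high, and testing every probe set gave 189. An adjusted p under 0.01 left 599 (69 positive), with CD25-CD49f+ high in 61, CD25-CD49f- high in 54 and CD25-CD49f- low in 213. An absolute interaction of at least 1 left 402 (44 positive, 358 negative), with CD25+CD49f- high in 64, CD25-CD49f+ high in 37, CD25-CD49f- high in 40 and CD25-CD49f- low in 147. Asking for a gap over 2 times the range left 35 with CD25-CD49f+ high and 190 with CD25-CD49f- low. Of the 93 named and called genes, 6 lost the call without some single array: Fcer1g, Themis2, Hspa1a, Glt28d2, Pltp and Jun. Signal near background limits the size of interactions whose lowest mean lies under 6.499.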
